A study of Mus musculus with 24 samples.

Results

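The chemokines and their receptors were measured in the livers of 24 female mice, as the genes whose array name marks a CC, CXC, CX3C or XC ligand (Ccl, Cxcl, Cx3cl, Xcl) or receptor (Ccr, Cxcr, Cx3cr, Xcr) or an atypical receptor (Ackr). This choice by name used no measured value and gave 83 probes of 59 genes, among 56605 non-control probes. Of the 59 genes, 40 had a probe well above background on every array of at least 1 group and were tested, among 22088 genes tested in all. The other 19 were not tested.

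All mice were female, of a sv129/C57 background and 8 weeks old. The KO FB1 group lacked both liver X receptors (LXRα and LXRβ) and received fumonisin B1 (FB1), a mycotoxin that blocks ceramide synthases, at 10 mg/kg body weight per day for 1 month. The KO control group had the same genotype and received water for the same time. The WT FB1 group had both receptors and received the toxin, and the WT control group had both and received water. Each group held 6 mice with 1 array per mouse, and the labels name no tissue restriction of the deletion. The design asks what the toxin changes in each genotype, what receptor loss changes with and without it, and whether the response to the toxin differs between genotypes.

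Chemokines are small secreted proteins that guide white blood cells along a concentration gradient. They bind receptors with a membrane-spanning fold that signal through inhibitory G proteins, whereas atypical receptors bind chemokines without that signal and take them up or carry them. Inflammatory members draw monocytes, neutrophils or effector lymphocytes into injured tissue, and homeostatic members place cells in lymphoid organs and resting tissues. In liver, Kupffer cells (the resident macrophages), sinusoidal endothelium, stellate cells and hepatocytes all make chemokines, and the receptors mark the white cells that enter. LXRs are oxysterol-activated transcription factors with known roles in cholesterol export and in macrophage gene expression.

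Levels are log2 of the processed signal relative to each array's 75th percentile, which lay between 490 and 685, and levels of different genes are not compared. On each array 58.7% to 64.5% of spots were well above background, and arrays of 1 group correlated at 0.984 to 0.994. The arrays lay on 3 slides, each with 2 arrays of every group. The deleted genes followed the labels: Nr1h3 (LXRα) lay between -5.13 and -2.56 in the KO livers and between 4.71 and 5.06 in the WT livers, and Nr1h2 (LXRβ) lay between 0.31 and 0.80 in the KO livers and between 4.02 and 4.34 in the WT livers. All 10 hepatocyte markers were well above background on every array, as the liver label requires. Values after ± beside a log2 difference are standard errors from limma, with Benjamini-Hochberg adjustment over all 22088 genes, and a call is an adjusted p under 0.05. The SD is given with group means. The number of arrays limits the precision, and fewer cells of a type and less RNA per cell cannot be told apart in whole-liver RNA.

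Many more of these genes, as of all genes, were called with FB1 in KO livers than in WT livers. In KO livers 23 of 40 were called, 15 higher and 8 lower, against 41.2% of all genes called (16.5% higher and 24.6% lower). In WT livers 2 were called, both higher, against 2.89% of all genes (2.06% higher and 0.824% lower). At an unadjusted p of 0.05 in the limma fit 17 members passed. The share of all genes passing it was not counted, so the 17 give no result about members. On leaving out a single array, the WT count became 6 when WT control replicate 6 was dropped (650 of all 22088 genes called). It became 4 when KO FB1 replicate 3 (732 genes) or WT FB1 replicate 2 (500 genes) or 4 (839 genes) was dropped. It became 1 when WT FB1 replicate 1 was (386 genes). The receptor loss itself went with 17 calls without FB1, 10 higher and 7 lower, against 15.2% of all genes (7.21% higher and 8.02% lower). With FB1 in both genotypes it went with 25 calls, 15 higher and 10 lower, against 32.8% (14.5% higher and 18.3% lower). The FB1 effect differed between genotypes for 8 members, 5 with a higher and 3 with a lower effect in KO livers, against 9.3% of all genes (4.46% and 4.84%). At 1.5-fold or more there were 17 calls with FB1 in KO livers (16.9% of all genes), 2 with FB1 in WT livers (1.89%), 12 and 18 between genotypes without and with FB1 (8.29% and 14.7%) and 7 for the difference of effects (5.9%). These 5 comparisons share samples.

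The median log2 difference over the 40 members was 0.40 for FB1 in KO livers, where it was -0.08 over all genes, and 0.12 for FB1 in WT livers, where it was -0.03 over all genes. Between KO and WT the medians were 0.15 for members and 0.01 for all genes without FB1, and 0.09 and -0.03 with it. The 6 arrays of one group lay wholly apart from those of the other for 12 members with FB1 in KO livers (18.4% of all genes), 1 with FB1 in WT livers (2.33%), 8 between genotypes without FB1 (7.93%) and 15 between genotypes with FB1 (15.2%). The 1 in WT livers was Cx3cl1, whose difference there was not called. With slide as a block the calls numbered 24 for FB1 in KO livers, 3 for FB1 in WT livers, 16 and 25 between genotypes without and with FB1, and 8 for the difference of effects. In the same order that block gave 9227, 645, 3403, 7346 and 2111 calls over all 22088 genes.

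**Figure D1:**
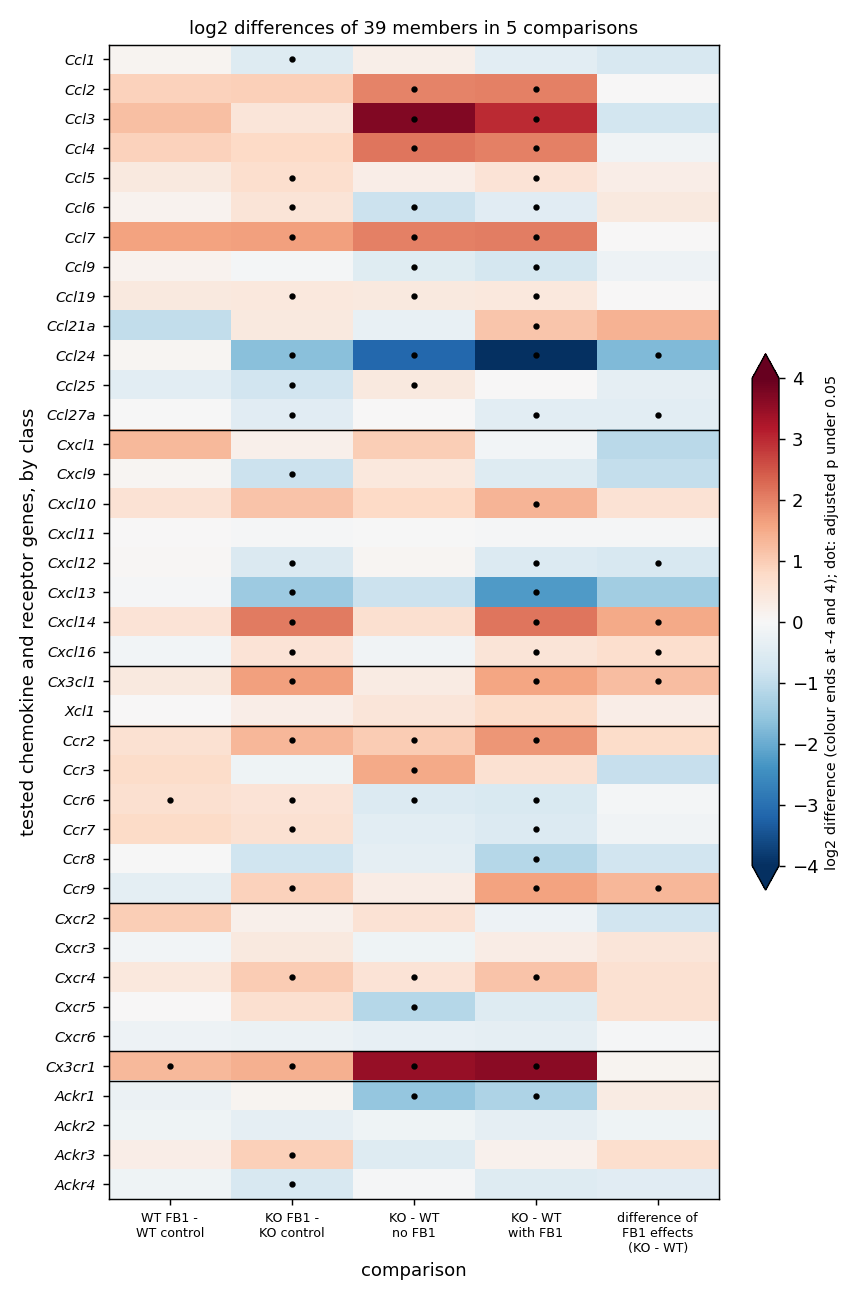
log2 differences of 39 tested chemokine and receptor genes (down the page, by class) in 5 comparisons (columns), red for higher and blue for lower, with a dot at an adjusted p under 0.05 from limma. The FB1 column of KO livers holds 22 dots and that of WT livers 2, and the strongest colours are those of Ccl3 and Cx3cr1 (higher in KO) and Ccl24 (lower in KO).

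Of the 19 genes not tested, 10 were well above background on 0 arrays: the CC ligands Ccl20, Ccl26 and Ccl28, the CXC ligands Cxcl2, Cxcl3, Cxcl15 and Cxcl17, and the receptors Ccr1, Ccr1l1 and Ccr4. The other 9 passed on some arrays without filling a group, namely Ccl8, Ccl11, Ccl12, Ccl17, Ccl22, Cxcl5, Ccr10, Cxcr1 and Xcr1. Among these Ccl8, a ligand of Ccr8, passed on 16 arrays and Ccl17, a ligand of Ccr4, on 14. Of the 5 CXC ligands with the ELR motif that draw neutrophils (Cxcl1, Cxcl2, Cxcl3, Cxcl5 and Cxcl15), Cxcl1 alone was tested.

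Marker genes of the cells that make or answer these signals also differed between groups. Over all genes, 16.5% were higher and 24.6% lower with FB1 in KO livers, and 2.06% and 0.824% in WT livers. Between genotypes 7.21% of all genes were higher and 8.02% lower in KO without FB1, and 14.5% and 18.3% with it. Counts near these shares give no result about a cell type. Of 12 markers of resident macrophages, 10 were lower and 0 higher in KO than in WT livers without FB1, and 8 lower and 1 higher with FB1. With FB1 in KO livers 4 were higher and 2 lower, and in WT livers 0 were called. The mean level of the list per array was 0.038 to 0.57 in KO FB1 livers, -0.0015 to 0.66 in KO control livers, 2.35 to 2.88 in WT FB1 livers and 1.59 to 3.06 in WT control livers. All 12 were well above background in every group, and Cd5l, a secreted scavenger-receptor protein of macrophages and a known LXR target, differed most, by -9.16 ± 0.28 (adjusted p = 3.09e-17) without FB1. Of 13 markers of recruited monocytes and macrophages, 10 were higher and 0 lower with FB1 in KO livers, and 5 were higher and 0 lower with FB1 in WT livers. Between genotypes, 6 were higher and 3 lower in KO without FB1 and 9 higher and 2 lower with it. Their mean level was 1.57 to 2.05 in KO FB1 livers, 0.10 to 0.61 in KO control livers, 0.0060 to 0.95 in WT FB1 livers and -1.15 to -0.082 in WT control livers.

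Of 12 neutrophil markers, 8 were lower and 0 higher in KO than in WT livers with FB1, and 3 lower and 0 higher without it. FB1 went with 2 higher and 1 lower in KO livers and 1 higher and 0 lower in WT livers. Dendritic cell markers (12, Ccr7 among them) had 5 higher and 1 lower calls with FB1 in KO livers, B and plasma cell markers (7 tested) 5 and 1, and T and NK cell markers (10 tested) 2 and 1. Over all genes 16.5% were higher and 24.6% lower there. In the same comparison 7 of 11 markers of sinusoidal endothelium were lower and 0 higher, 7 of 11 stellate cell markers were higher and 1 lower, and 5 of 10 hepatocyte markers were lower and 0 higher. Of 10 cholangiocyte markers 1 was higher, of 6 tested erythroid markers 1 was lower, and of 4 tested markers of pancreas and adipose tissue 3 were lower. With FB1 in WT livers the other calls of these lists were 2 stellate cell markers (Col1a1 and Col3a1, collagen chains) and 1 cholangiocyte marker (Prom1), all higher. Some of these lists are set beside the chemokine results below, and their part in them was not tested.

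**Figure D2:**
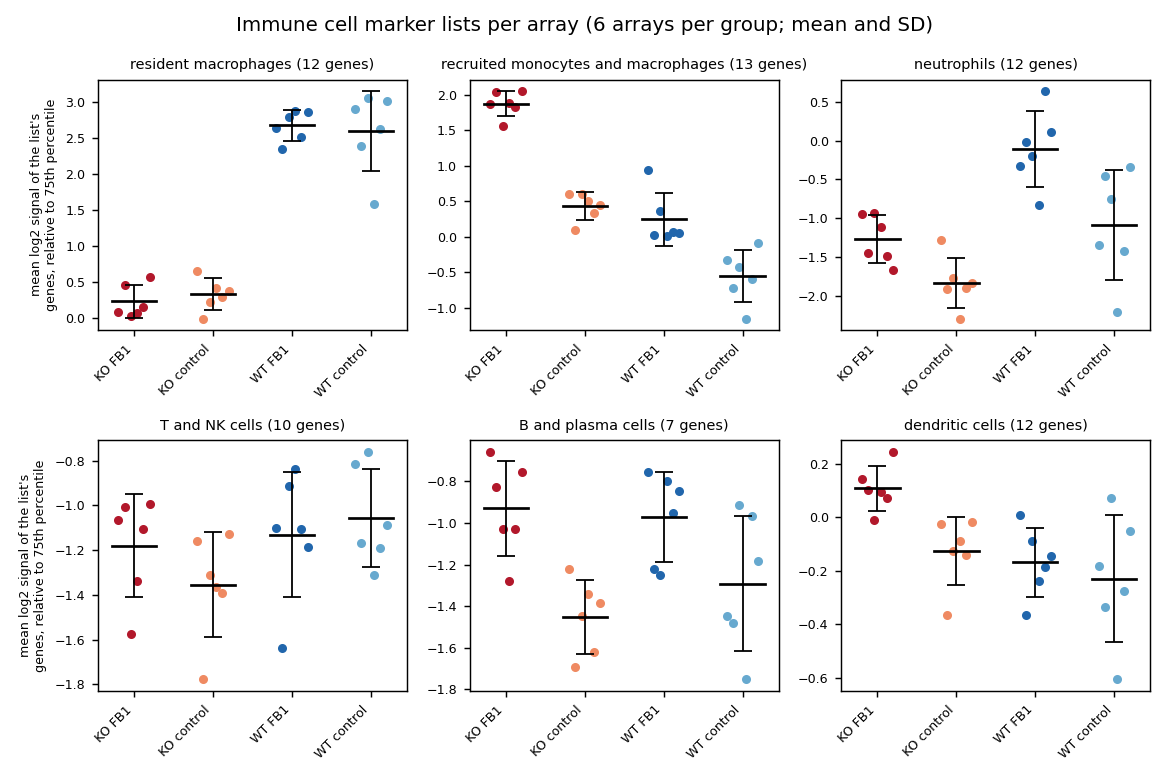
Mean log2 level (relative to the array's 75th percentile) of the tested genes of 6 immune cell marker lists, 1 point per array, in the 4 groups; the long bar is the mean and the whiskers the SD of 6 arrays. The resident macrophage list lay at 0.038 to 0.57 in KO FB1 and -0.0015 to 0.66 in KO control livers and above both in all WT livers, and the recruited list was highest in KO FB1 livers (1.57 to 2.05).

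The CC ligands Ccl2, Ccl7, Ccl3 and Ccl4 were higher in KO than in WT livers with and without the toxin. Ccl2 and Ccl7 both bind Ccr2, the receptor by which monocytes leave the bone marrow, and Ccl3 and Ccl4 draw macrophages and T cells. Ccl2 averaged 1.55 ± 0.73 in KO FB1, 0.60 ± 0.51 in KO control, -0.46 ± 0.80 in WT FB1 and -1.38 ± 1.07 in WT control livers (SD, n = 6 each). It was 3.94-fold higher in KO than in WT livers without FB1 (1.98 ± 0.44, adjusted p = 0.00256) and 4.01-fold higher with it (2.0 ± 0.44, adjusted p = 0.00106). The groups overlapped, and the difference without FB1 was 2.55, 2.76 and 0.62 within slides 1, 2 and 3. The FB1 differences of Ccl2 were not called, at 0.95 ± 0.44 (adjusted p = 0.0864) in KO livers and 0.92 ± 0.44 (adjusted p = 0.268) in WT livers.

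Ccl7 lay at -3.24 to -1.19 (median -1.79) in KO FB1 livers, -4.42 to -2.52 (median -3.46) in KO control livers, -5.84 to -2.60 (median -3.86) in WT FB1 livers and -6.86 to -3.25 (median -6.07) in WT control livers. All KO FB1 arrays were above all WT control arrays, and the other pairs of groups overlapped. Ccl7 rose 3.1-fold with FB1 in KO livers (1.63 ± 0.58, adjusted p = 0.0291), a call lost on leaving out KO control replicate 2 or 5 or KO FB1 replicate 1 or 2 (adjusted p up to 0.0676) and with no filter on dim probes. A like difference in WT livers was not called (1.60 ± 0.58, adjusted p = 0.144). Between genotypes Ccl7 differed by 2.03 ± 0.58 without FB1 and 2.06 ± 0.58 with it. Ccl7 passed the filter through the KO groups alone, which favours this direction. Its genotype calls enter the counts, but no p-value is set beside these differences. Without FB1 only 3 of 6 WT control arrays were well above background, the difference was 1.51 with the dim arrays raised to the background floor, and it was 3.35, 2.29 and 0.45 within slides 1, 2 and 3. The genotype call without FB1 was lost without KO control replicate 3 or WT control replicate 5 and with normexp or the authors' values.

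Ccl3 lay at -3.91 to -2.81 (median -3.70) in KO FB1 livers, -4.48 to -3.40 (median -3.95) in KO control livers, -7.90 to -5.52 (median -6.27) in WT FB1 livers and -8.11 to -6.44 (median -7.85) in WT control livers. It was well above background on all 12 KO arrays, on 1 of 6 WT FB1 arrays and on 0 of 6 WT control arrays, and no KO array overlapped a WT array. Against the background floor, Ccl3 was at least 3.78-fold higher in KO control than in WT control livers, from group means of -3.96 and -7.65. With FB1 the fitted difference between KO and WT was 2.97 ± 0.34, and 2.17 with the dim arrays at the floor. Ccl3 passed the filter through the KO groups alone, and nearly all its WT values were below background. Its genotype calls enter the counts, but no p-value is set beside these differences, since the filter favoured their direction. Ccl4, its neighbour on chromosome 11, lay at -2.08 to -0.71 (median -1.11) in KO FB1 livers, -2.66 to -1.34 (median -2.08) in KO control livers, -4.61 to -2.25 (median -3.27) in WT FB1 livers and -6.12 to -2.46 (median -4.19) in WT control livers. All 6 KO FB1 arrays were above all 6 WT FB1 arrays, while KO control and WT control arrays overlapped. The difference of Ccl4 between KO and WT was 2.15 ± 0.48 (adjusted p = 0.00293) without FB1 (2.92, 2.96 and 0.59 within slides 1, 2 and 3) and 2.02 ± 0.48 (adjusted p = 0.00241) with it. Neither Ccl3 nor Ccl4 was called for FB1 in KO livers (0.48 ± 0.34, adjusted p = 0.28 for Ccl3, 0.79 ± 0.48, adjusted p = 0.196 for Ccl4), and Ccl4 was not called in WT livers (0.93 ± 0.48, adjusted p = 0.316). For Ccl3 no difference between the WT groups is given, since 11 of the 12 WT arrays were not well above background.

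**Figure D3:**
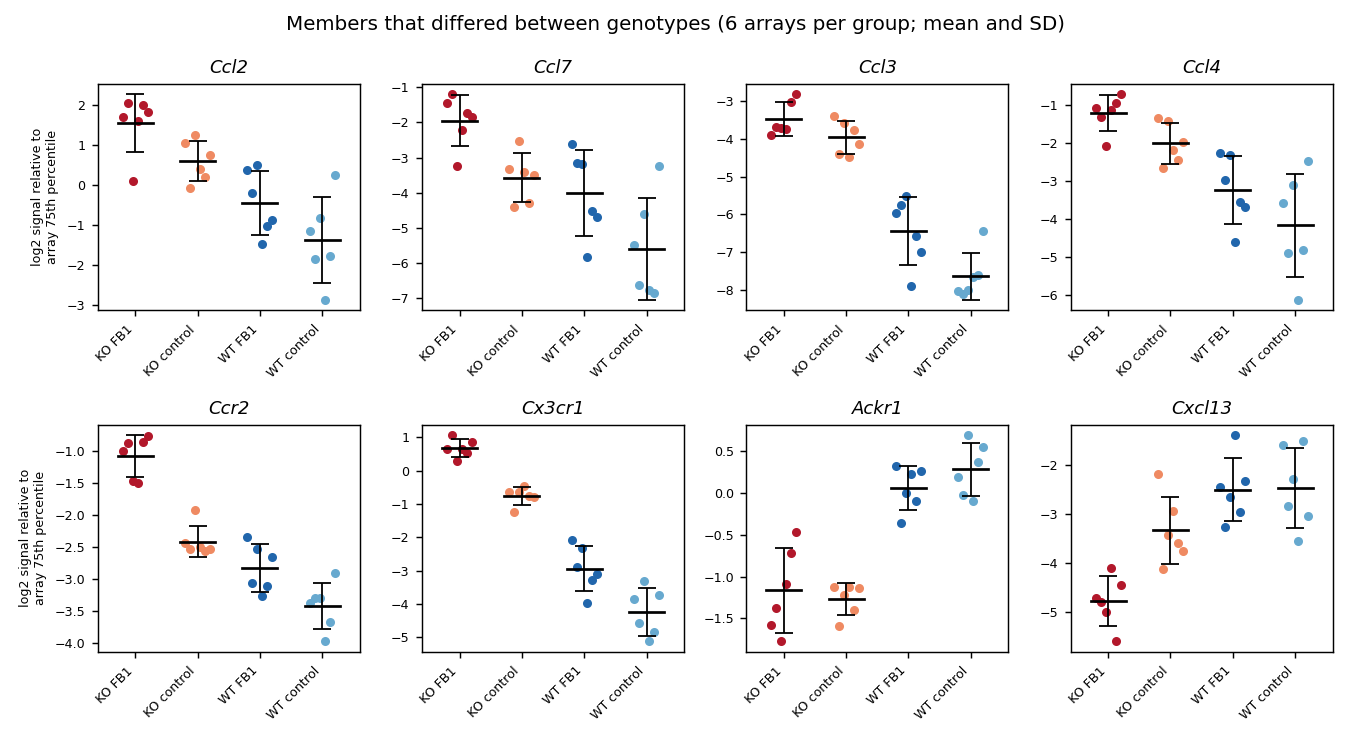
log2 levels relative to the array's 75th percentile of 8 members that differed between genotypes, 1 point per array, in KO FB1, KO control, WT FB1 and WT control livers; the long bar is the mean and the whiskers the SD of 6 arrays, and each panel has its own axis. Cx3cr1 lay at 0.29 to 1.07 in KO FB1 and at -3.97 to -2.07 in WT FB1 livers, and Ccl3 was above background in WT livers on 1 array.

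Other inflammatory CC ligands went the other way between genotypes. Ccl24 (eotaxin-2), which draws eosinophils through Ccr3, was lower in KO livers by more than any other member. It lay at -4.57 to -3.50 (median -3.82) in KO FB1 livers, -2.65 to -1.94 (median -2.27) in KO control livers, 0.45 to 1.40 (median 0.92) in WT FB1 livers and -0.090 to 1.53 (median 0.91) in WT control livers. All arrays of both KO groups were below all WT arrays, and all KO FB1 arrays were below all KO control arrays. Ccl24 was 8.81-fold lower in KO than in WT livers without FB1 (-3.14 ± 0.22, adjusted p = 1.95e-10) and 29.9-fold lower with it (-4.90 ± 0.22, adjusted p = 5.72e-14). FB1 lowered it 3.19-fold further in KO livers (-1.68 ± 0.22, adjusted p = 4.12e-06), while the WT difference was 0.086 ± 0.22 (adjusted p = 0.876). The FB1 effects differed by -1.76 ± 0.31 (adjusted p = 0.00179), with values of -1.83, -2.28 and -1.17 within slides 1, 2 and 3. Its probe lies on chromosome 5 at 136046485 to 136046544 (mm9).

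Ccl6 and Ccl9 are rodent ligands of Ccr1 made by myeloid cells, and both were lower in KO livers. Ccl6 was 1.81-fold lower without FB1 (-0.86 ± 0.15, adjusted p = 0.00019) and 1.37-fold lower with it (-0.46 ± 0.15, adjusted p = 0.0204), a call lost without KO FB1 replicate 1 or WT FB1 replicate 6 (adjusted p up to 0.061). FB1 raised Ccl6 in KO livers (0.53 ± 0.15, adjusted p = 0.00648). Ccl9 differed by -0.47 ± 0.12 (adjusted p = 0.00868) without FB1 and -0.69 ± 0.12 (adjusted p = 0.000113) with it, and its FB1 difference in KO livers was -0.092 ± 0.12 (adjusted p = 0.574). Between genotypes 10 of the 12 resident macrophage markers were lower and 0 higher in KO livers without FB1 (8.02% and 7.21% of all genes). With the toxin in both genotypes 8 were lower and 1 higher (18.3% and 14.5%). With FB1 in KO livers 4 were higher and 2 lower (16.5% and 24.6%). Their part in the differences of Ccl24, Ccl6 and Ccl9 was not tested.

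Ccl5, a T cell attractant made by T and NK cells among others, rose 1.59-fold with FB1 in KO livers (0.67 ± 0.18, adjusted p = 0.00486) and was higher in KO than in WT livers with FB1 (0.54 ± 0.18, adjusted p = 0.0236), a call lost without KO FB1 replicate 6 or WT FB1 replicate 2 (adjusted p up to 0.0727). Ccl1, a ligand of Ccr8, fell with FB1 in KO livers (-0.53 ± 0.19, adjusted p = 0.0289), a call lost without KO control replicate 2 or 5 or KO FB1 replicate 2, 4 or 6 (adjusted p up to 0.0768) and with normexp, the authors' values or no filter on dim probes. Of the 8 tested inflammatory CC ligands, 3 were higher and 1 lower with FB1 in KO livers (16.5% and 24.6% of all genes), and 0 were called in WT livers (2.89% of all genes). Between genotypes 4 were higher and 3 lower in KO without FB1 (7.21% and 8.02% of all genes), and 5 higher and 3 lower with it (14.5% and 18.3%).

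Homeostatic ligands moved in both directions with FB1 in KO livers, 2 higher and 4 lower of 7 tested, where 16.5% of all genes were higher and 24.6% lower, and 0 were called in WT livers. Cxcl12 holds haematopoietic and lymphoid cells in their niches through Cxcr4 and is made in liver by stromal and endothelial cells. It lay at 5.25 to 5.75 (median 5.49) in KO FB1 livers, 5.78 to 6.27 (median 6.10) in KO control livers, 5.86 to 6.15 (median 6.04) in WT FB1 livers and 5.75 to 6.26 (median 6.03) in WT control livers. The KO FB1 arrays were below every KO control and WT FB1 array and met the lowest WT control array, and those 3 groups overlapped. Cxcl12 fell 1.51-fold with FB1 in KO livers (-0.59 ± 0.10, adjusted p = 5.41e-05), while the WT difference was 0.035 ± 0.10 (adjusted p = 0.888). The effects differed by -0.63 ± 0.14 (adjusted p = 0.0068; -0.47, -0.78 and -0.64 within slides 1, 2 and 3). Its other tested probe gave -0.43 with FB1 in KO livers and -0.53 for the difference, which did not pass the threshold. The probe used lies on chromosome 6 at 117131227 to 117131286 (mm9). With FB1 in KO livers 7 of 11 sinusoidal endothelium markers were lower and 0 higher. Stellate cell markers went the other way, with 7 of 11 higher and 1 lower. The part of these lists was not tested.

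Cxcl14, a conserved ligand of epithelia and stroma, rose more with FB1 in KO livers than any other member. It lay at 2.05 to 2.59 (median 2.32) in KO FB1 livers, -0.22 to 0.42 (median 0.27) in KO control livers, -0.32 to 0.63 (median 0.097) in WT FB1 livers and -1.1 to 0.72 (median -0.49) in WT control livers. All KO FB1 arrays were above every other array, and the other groups overlapped. Cxcl14 was 4.19-fold higher with FB1 in KO livers (2.07 ± 0.22, adjusted p = 3.41e-07), against 0.54 ± 0.22 (adjusted p = 0.189) in WT livers. The difference of the effects was 1.53 ± 0.31 (adjusted p = 0.00408) and was 1.08, 0.55 and 2.94 within slides 1, 2 and 3. With FB1 it was 4.45-fold higher in KO than in WT livers (2.15 ± 0.22, adjusted p = 6.91e-08). The probe lies on chromosome 13 at 56390078 to 56390137 (mm9). With FB1 in KO livers 7 of 11 stellate cell markers were higher and 1 lower (16.5% and 24.6% of all genes). Of 10 hepatocyte markers 0 were higher and 5 lower, and of 10 cholangiocyte markers 1 was higher and 0 lower. The part of these lists was not tested.

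Cxcl13 draws B cells through Cxcr5 and is made by follicular stroma and some macrophages. It lay at -5.61 to -4.10 (median -4.76) in KO FB1 livers, -4.12 to -2.18 (median -3.52) in KO control livers, -3.27 to -1.40 (median -2.56) in WT FB1 livers and -3.55 to -1.52 (median -2.57) in WT control livers. All KO FB1 arrays were below all WT FB1 arrays, and the KO FB1 and KO control groups overlapped at 1 end. Cxcl13 fell 2.71-fold with FB1 in KO livers (-1.44 ± 0.37, adjusted p = 0.00333) and was 4.81-fold lower in KO than in WT livers with FB1 (-2.27 ± 0.37, adjusted p = 4.65e-05). The call with FB1 in KO livers was lost with normexp. The WT FB1 difference was -0.036 ± 0.37 (adjusted p = 0.973), and the difference of effects was not called (-1.40 ± 0.52, adjusted p = 0.0903).

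Ccl27a, known for guiding T cells to skin through Ccr10, lay at 1.55 to 1.85 (median 1.68) in KO FB1 livers, 1.93 to 2.34 (median 2.14) in KO control livers, 2.03 to 2.21 (median 2.09) in WT FB1 livers and 1.89 to 2.28 (median 2.15) in WT control livers. The KO FB1 arrays lay below all other arrays. It fell 1.35-fold with FB1 in KO livers (-0.44 ± 0.08, adjusted p = 0.000161), against -0.0038 ± 0.08 (adjusted p = 0.987) in WT livers, and the effects differed by -0.43 ± 0.11 (adjusted p = 0.0181; -0.52, -0.20 and -0.59 within slides 1, 2 and 3). Of its 3 tested probes, on chromosome 4 (mm9), the one at 41716357 to 41716416 overlaps the one used at 41716345 to 41716404 and gave -0.50 with FB1 in KO livers. The one at 41720610 to 41720669 rose there, by 0.20 (adjusted p = 0.0271, from a limma fit of all tested probes). The fall is thus that of the overlapping probes and is not shared by all probes of the gene. The call on the difference was lost with the mean of the 3 probes and with the authors' values. Ccl27a, Ccl21a and possibly Ccl19 have near-identical copies on mouse chromosome 4 that these probes may not separate.

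Ccl19 and Ccl21a guide dendritic cells and T cells through Ccr7. Ccl19 rose with FB1 in KO livers (0.41 ± 0.13, adjusted p = 0.018), a call lost without KO control replicate 5 or KO FB1 replicate 6 (adjusted p up to 0.0555), and the WT difference was 0.39 ± 0.13 (adjusted p = 0.124). It was higher in KO than in WT livers without FB1 (0.39 ± 0.13, adjusted p = 0.0488), a call lost on leaving out any 1 of 18 arrays (adjusted p up to 0.128) and with quantile normalisation, normexp, the authors' values, no filter on dim probes, slide as a block or the 2 groups fitted alone, and with FB1 (0.42 ± 0.13, adjusted p = 0.0196), a call lost without KO FB1 replicate 6 or WT FB1 replicate 4 (adjusted p up to 0.0593). Ccl21a was higher in KO than in WT livers with FB1 (1.1 ± 0.41, adjusted p = 0.0417), a call lost on leaving out any 1 of 7 arrays (adjusted p up to 0.0902) and with normexp or no filter on dim probes. Ccl25, the gut and thymus ligand of Ccr9, fell 1.72-fold with FB1 in KO livers (-0.78 ± 0.12, adjusted p = 1.63e-05), and the WT difference of -0.41 ± 0.12 (adjusted p = 0.0572) was not called. It was higher in KO than in WT livers without FB1 (0.38 ± 0.12, adjusted p = 0.0262), a call lost without KO control replicate 2 or 5 or WT control replicate 2 or 5 (adjusted p up to 0.065) and with the authors' values or no filter on dim probes. Its other tested probes gave 0.39 and 0.062 there, and neither passed the threshold. With FB1 in KO livers they gave -0.99 and -0.43. Between genotypes with FB1 the latter probe was lower in KO (-0.30, adjusted p = 0.0165, from a limma fit of all tested probes), where the probe used gave 0.0064.

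The membrane-anchored ligands Cx3cl1 and Cxcl16, which hold cells to the surface that displays them and can be shed, both rose with FB1 in KO livers. Cx3cl1 (fractalkine) lay at -1.69 to -0.27 (median -0.97) in KO FB1 livers, -3.10 to -2.23 (median -2.64) in KO control livers, -2.82 to -2.19 (median -2.59) in WT FB1 livers and -3.16 to -2.83 (median -2.93) in WT control livers. The KO FB1 arrays were above all others, and the WT FB1 arrays were above the WT control arrays. Cx3cl1 was 3.09-fold higher with FB1 in KO livers (1.63 ± 0.19, adjusted p = 9.58e-07), against 0.39 ± 0.19 (adjusted p = 0.279) in WT livers. The effects differed by 1.24 ± 0.27 (adjusted p = 0.00594), and by 1.70, 0.098 and 1.91 within slides 1, 2 and 3. Its probe lies on chromosome 8 at 97306185 to 97306244 (mm9).

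Cxcl16, the ligand of Cxcr6 and a receptor for oxidised lipids, lay at -0.54 to -0.0066 (median -0.16) in KO FB1 livers, -1.07 to -0.59 (median -0.70) in KO control livers, -1.02 to -0.45 (median -0.71) in WT FB1 livers and -0.76 to -0.48 (median -0.64) in WT control livers. The KO FB1 arrays were above all KO control arrays and overlapped the WT FB1 and WT control arrays at their lower end. It rose 1.47-fold with FB1 in KO livers (0.56 ± 0.11, adjusted p = 0.000371), against -0.11 ± 0.11 (adjusted p = 0.626) in WT livers, and the effects differed by 0.67 ± 0.16 (adjusted p = 0.0101; 0.88, 0.46 and 0.68 within slides 1, 2 and 3). Its other tested probe gave 0.68 with FB1 in KO livers. The probe used lies on chromosome 11 at 70267780 to 70267839 (mm9). Xcl1, a lymphocyte ligand of Xcr1, was called in 0 of 5 comparisons, with an FB1 difference of 0.26 ± 0.29 (adjusted p = 0.509) in KO livers and 0.0026 ± 0.29 (adjusted p = 0.998) in WT livers.

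**Figure D4:**
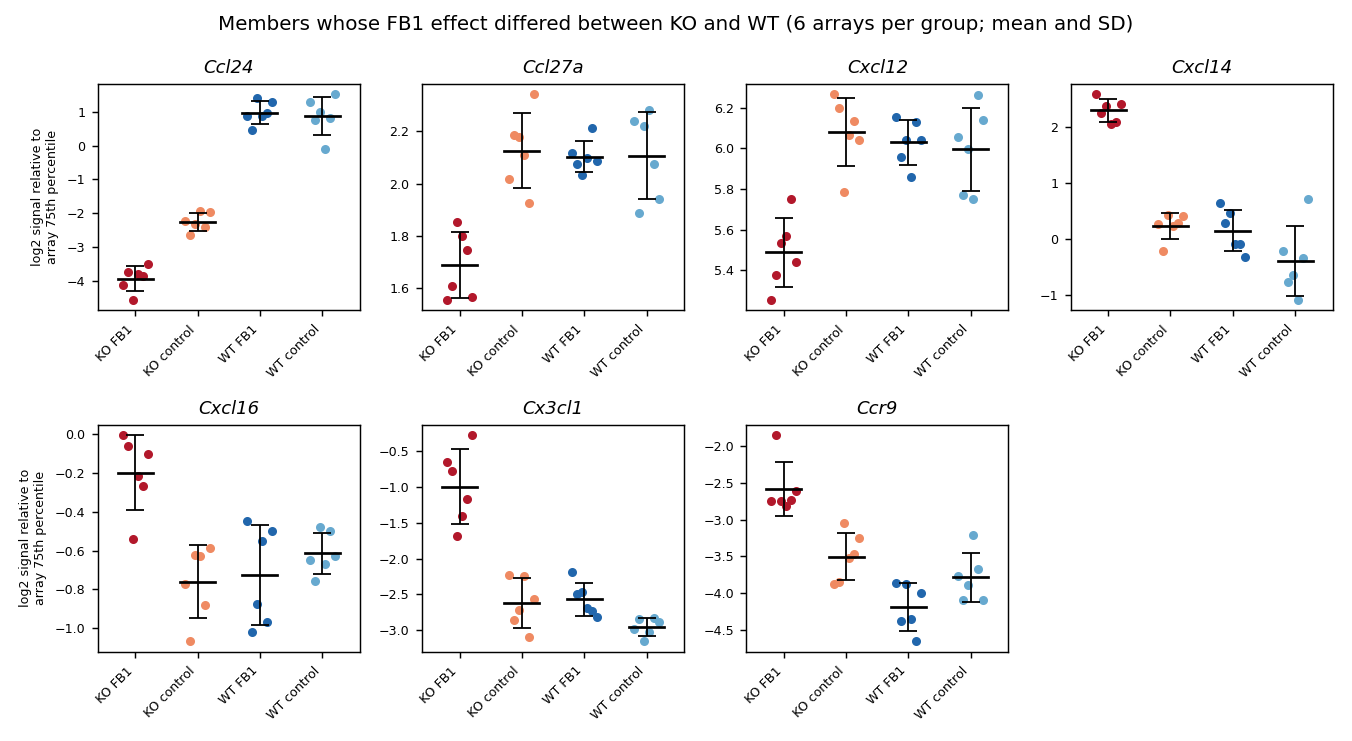
log2 levels relative to the array's 75th percentile of 7 members whose FB1 effect differed between genotypes, 1 point per array, in KO FB1, KO control, WT FB1 and WT control livers; the long bar is the mean and the whiskers the SD of 6 arrays, and each panel has its own axis. In Ccl27a, Cxcl14, Cx3cl1 and Ccr9 the KO FB1 arrays lie apart from the other 3 groups; Cxcl14 reached 2.05 to 2.59 in KO FB1 livers.

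The interferon-inducible ligands Cxcl9, Cxcl10 and Cxcl11 draw T and NK cells through Cxcr3 and were not called together in any comparison. Cxcl10 averaged 2.03 ± 1.22 in KO FB1, 0.90 ± 0.81 in KO control, 0.68 ± 0.75 in WT FB1 and 0.11 ± 0.83 in WT control livers (SD, n = 6 each). It was 2.55-fold higher in KO than in WT livers with FB1 (1.35 ± 0.50, adjusted p = 0.0416), a call lost on leaving out any 1 of 9 arrays (adjusted p up to 0.103) and with no filter on dim probes or the 2 groups fitted alone, and the difference was 1.76, -0.24 and 2.53 within slides 1, 2 and 3. Cxcl9 fell 1.83-fold with FB1 in KO livers (-0.87 ± 0.31, adjusted p = 0.0281), a call lost without KO control replicate 1 or 3 or KO FB1 replicate 1 or 3 (adjusted p up to 0.0806) and with no filter on dim probes. Cxcl11 lay at 8.25 to 8.63 (median 8.52) in KO FB1 livers, 8.37 to 8.69 (median 8.51) in KO control livers, 8.38 to 8.68 (median 8.57) in WT FB1 livers and 8.43 to 8.66 (median 8.51) in WT control livers, was not saturated and was called in 0 of 5 comparisons. Whether this bright probe also binds other transcripts was not tested, so neither its level nor the lack of calls can be credited to Cxcl11 alone. Cxcl1, the tested neutrophil ligand, was also called in none. It lay at 1.09 to 3.05 (median 2.06) in KO FB1 livers, 1.09 to 2.71 (median 1.91) in KO control livers, 0.41 to 5.25 (median 1.85) in WT FB1 livers and -0.18 to 1.91 (median 1.17) in WT control livers, with the highest WT FB1 array (replicate 2) far above the other groups. Its FB1 difference was 0.21 ± 0.57 (adjusted p = 0.797) in KO livers and 1.29 ± 0.57 (adjusted p = 0.238) in WT livers.

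Start-site sequences were read from RefSeq (GRCm38.p6), as windows of 300 bases from 250 before to 50 after each start, for 44 of the 59 genes (48 windows). Of the motifs searched on both strands, GGGA and TTCC with any 2 bases between them, a core to which NF-kB binds, was in 6 of 48 member windows (12.5%) and in 482 of 32851 windows of all genes (1.47%). The members were Ccl1, Ccr3, Cxcl1, Cxcl2, Cxcl3 and Cxcl10. The pattern of TTTC and TTTC with any 2 bases between them, bound by interferon regulatory factors, was in 3 member windows (6.25%), those of Ccl19, Cxcl10 and Cxcl14, and in 1131 of all windows (3.44%). A match describes these letters and shows no binding. The following stretches show the shared run of the neutrophil ligands and the matches of Cxcl10, Cxcl14 and Ccl19, called members whose levels are described here, with motif letters in capitals, and matches of both strands overlap in the first 3.
Cxcl1: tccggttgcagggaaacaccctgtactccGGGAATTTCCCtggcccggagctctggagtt
Cxcl2: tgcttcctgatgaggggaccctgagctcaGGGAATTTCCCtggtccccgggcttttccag
Cxcl3: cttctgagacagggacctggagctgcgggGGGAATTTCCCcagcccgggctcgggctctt
Cxcl10: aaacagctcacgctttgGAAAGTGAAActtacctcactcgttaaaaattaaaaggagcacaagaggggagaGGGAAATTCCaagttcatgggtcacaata
Cxcl14: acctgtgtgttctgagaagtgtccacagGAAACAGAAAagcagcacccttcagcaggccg
Ccl19: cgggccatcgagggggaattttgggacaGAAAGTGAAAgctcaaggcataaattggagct
On the strand of the gene, these stretches lie at chr5:90891145-90891204 (plus strand), chr5:90903773-90903832 (plus), chr5:90785999-90786058 (plus), chr5:92349020-92349119 (minus), chr13:56296692-56296751 (minus) and chr4:42756542-42756601 (minus). The Cxcl1, Cxcl2 and Cxcl3 stretches hold the same 11 capital letters. Cxcl2 and Cxcl3 were above background on 0 arrays and Cxcl1 was called in 0 comparisons, while Cxcl10, with both motifs, was called in 1. Ccl1 and Ccr3, which also hold the first motif, were each called in 1 comparison.

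Ccr2 and Cx3cr1, receptors of monocytes and macrophages, were highest in KO FB1 livers. Ccr2 averaged -1.07 ± 0.33 in KO FB1, -2.41 ± 0.24 in KO control, -2.83 ± 0.37 in WT FB1 and -3.42 ± 0.37 in WT control livers (SD, n = 6 each). It rose 2.53-fold with FB1 in KO livers (1.34 ± 0.18, adjusted p = 6.74e-06), and the WT difference was 0.60 ± 0.18 (adjusted p = 0.0824). Between genotypes it was 2.01-fold higher in KO without FB1 (1.01 ± 0.18, adjusted p = 0.00034) and 3.37-fold higher with it (1.75 ± 0.18, adjusted p = 1.13e-07), with values of 1.96, 1.21 and 2.08 within slides 1, 2 and 3. The effects were not called different (0.74 ± 0.26, adjusted p = 0.0727).

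Cx3cr1, the fractalkine receptor of monocytes and of many tissue macrophages, had the largest genotype difference without FB1 among members above background on all arrays, and the largest after Ccl24 with FB1. It lay at 0.29 to 1.07 (median 0.65) in KO FB1 livers, -1.25 to -0.45 (median -0.69) in KO control livers, -3.97 to -2.07 (median -3.00) in WT FB1 livers and -5.13 to -3.32 (median -4.22) in WT control livers. All KO arrays were above all WT arrays, all KO FB1 arrays were above all KO control arrays, and the WT groups overlapped. Cx3cr1 was 11.3-fold higher in KO than in WT livers without FB1 (3.50 ± 0.29, adjusted p = 3.72e-09) and 12.3-fold higher with it (3.62 ± 0.29, adjusted p = 1.61e-09). FB1 raised it 2.68-fold in KO livers (1.42 ± 0.29, adjusted p = 0.000463) and also in WT livers, by 1.30 ± 0.29 (adjusted p = 0.0121), where it was 1.91, 1.74 and 0.26 within slides 1, 2 and 3 and was not called from the 2 WT groups alone. Its other tested probe gave 0.77 with FB1 in KO livers, which did not pass the threshold, and was well above background on 2 of 6 WT FB1 and 1 of 6 WT control arrays, so it gives no measured genotype difference. The FB1 effects differed by 0.12 ± 0.41 (adjusted p = 0.892). In the same comparisons 10 of 13 markers of recruited monocytes and macrophages rose with FB1 in KO livers (16.5% of all genes). In WT livers 5 rose (2.06%). Between genotypes 6 were higher and 3 lower in KO without FB1 (7.21% and 8.02%). With FB1 in both genotypes 9 were higher and 2 lower (14.5% and 18.3%). Their part in the differences of Ccr2, Cx3cr1 and their ligands was not tested.

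Ccr9, the receptor of Ccl25 on gut-homing T cells and plasmacytoid dendritic cells, lay at -2.81 to -1.85 (median -2.73) in KO FB1 livers, -3.87 to -3.05 (median -3.50) in KO control livers, -4.66 to -3.87 (median -4.17) in WT FB1 livers and -4.09 to -3.21 (median -3.83) in WT control livers. The KO FB1 arrays were above all others, and the other groups overlapped. It rose 1.89-fold with FB1 in KO livers (0.92 ± 0.19, adjusted p = 0.000446), against -0.40 ± 0.19 (adjusted p = 0.257) in WT livers, and the effects differed by 1.32 ± 0.26 (adjusted p = 0.00384; 1.36, 1.36 and 1.25 within slides 1, 2 and 3). Its other tested probe was well above background on 6 of 6 KO FB1, 3 of 6 KO control, 0 of 6 WT FB1 and 1 of 6 WT control arrays and gives no measured difference of effects, and with the mean of both probes the call on the difference was lost. Of 12 dendritic cell markers 5 rose and 1 fell with FB1 in KO livers (16.5% and 24.6% of all genes). Their part was not tested.

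Ccr6, the receptor of Ccl20 on B cells and some T cells, lay at -3.92 to -3.38 (median -3.66) in KO FB1 livers, -4.50 to -3.79 (median -4.20) in KO control livers, -3.21 to -2.68 (median -3.07) in WT FB1 livers and -4.15 to -3.19 (median -3.70) in WT control livers. The arrays of both KO groups were below all WT FB1 arrays, while the 2 KO groups overlapped each other, as did the 2 WT groups. It rose with FB1 in KO livers (0.55 ± 0.15, adjusted p = 0.00462) and in WT livers (0.64 ± 0.15, adjusted p = 0.0156), the WT call being lost without WT FB1 replicate 1 (adjusted p = 0.0529) and from the 2 WT groups alone. It was lower in KO than in WT livers without FB1 (-0.53 ± 0.15, adjusted p = 0.0143), a call lost with normexp or the 2 groups fitted alone, and with it (-0.62 ± 0.15, adjusted p = 0.00212). Ccr7, the receptor of Ccl19 and Ccl21a, rose with FB1 in KO livers (0.62 ± 0.21, adjusted p = 0.022; 0.76, -0.0016 and 1.1 within slides 1, 2 and 3), a call lost without KO control replicate 5 or KO FB1 replicate 6 (adjusted p up to 0.0679) and with the authors' values, and the WT difference was 0.76 ± 0.21 (adjusted p = 0.051). With FB1 it was lower in KO than in WT livers (-0.55 ± 0.21, adjusted p = 0.0466), a call lost on leaving out any 1 of 16 arrays (adjusted p up to 0.119) and with no filter on dim probes, the mean of its tested probes or the 2 groups fitted alone. Of 7 tested B and plasma cell markers, 5 rose and 1 fell with FB1 in KO livers (16.5% and 24.6% of all genes). Their part was not tested.

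Ccr3, the eosinophil receptor of Ccl24, was 2.83-fold higher in KO than in WT livers without FB1 (1.5 ± 0.34, adjusted p = 0.00331; 1.83, 2.0 and 0.67 within slides 1, 2 and 3), and the difference with FB1 was 0.59 ± 0.34 (adjusted p = 0.192). Ccr8, a receptor of Ccl1 on some T cells, was lower in KO than in WT livers with FB1 (-1.13 ± 0.35, adjusted p = 0.0155), a call lost with the authors' values.

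Of the 5 tested CXC receptors 1 was higher with FB1 in KO livers, where 16.5% of all genes were. Between genotypes 1 was higher and 1 lower in KO without FB1 (7.21% and 8.02% of all genes), and 1 higher with it (14.5%). Cxcr4, the Cxcl12 receptor of most white cells, averaged -3.40 ± 0.23 in KO FB1, -4.40 ± 0.29 in KO control, -4.53 ± 0.26 in WT FB1 and -4.94 ± 0.43 in WT control livers (SD, n = 6 each) and rose 2-fold with FB1 in KO livers (1.0 ± 0.17, adjusted p = 9.1e-05), where the WT difference was 0.41 ± 0.17 (adjusted p = 0.213). It was higher in KO than in WT livers with FB1 (1.13 ± 0.17, adjusted p = 2.24e-05) and, by a call lost on leaving out any 1 of 6 arrays (adjusted p up to 0.1) and with normexp, the authors' values, no filter on dim probes or the 2 groups fitted alone, without FB1 (0.54 ± 0.17, adjusted p = 0.0367). Cxcr5, the B cell receptor of Cxcl13, was lower in KO than in WT livers without FB1 (-1.14 ± 0.36, adjusted p = 0.0357), a call lost on leaving out any 1 of 6 arrays (adjusted p up to 0.0767) and with normexp, the authors' values, no filter on dim probes or the 2 groups fitted alone. The neutrophil receptor Cxcr2, the T and NK cell receptor Cxcr3 and Cxcr6, the Cxcl16 receptor, were called in 0 comparisons. The FB1 differences in KO livers were 0.21 ± 0.39 (adjusted p = 0.698) for Cxcr2, 0.38 ± 0.23 (adjusted p = 0.184) for Cxcr3 and -0.25 ± 0.15 (adjusted p = 0.191) for Cxcr6.

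Among the 4 atypical receptors, Ackr1, which carries inflammatory chemokines across venular endothelium and on red cells, averaged -1.17 ± 0.51 in KO FB1, -1.27 ± 0.19 in KO control, 0.056 ± 0.26 in WT FB1 and 0.28 ± 0.31 in WT control livers (SD, n = 6 each). All KO arrays were below all WT arrays. Ackr1 was 2.91-fold lower in KO than in WT livers without FB1 (-1.54 ± 0.19, adjusted p = 1.71e-06) and 2.33-fold lower with it (-1.22 ± 0.19, adjusted p = 2.32e-05), with the same direction in a further probe and in every slide. Ackr3, which removes Cxcl12, rose 1.94-fold with FB1 in KO livers (0.96 ± 0.23, adjusted p = 0.00232), and the WT difference was 0.28 ± 0.23 (adjusted p = 0.551). Ackr4, which removes Ccl19, Ccl21a and Ccl25, fell with FB1 in KO livers (-0.65 ± 0.26, adjusted p = 0.0454), a call lost on leaving out any 1 of 13 arrays (adjusted p up to 0.119) and with normexp or no filter on dim probes. Ackr2, which removes inflammatory CC ligands, was called in 0 comparisons, with an FB1 difference of -0.35 ± 0.19 (adjusted p = 0.134) in KO livers.

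**Figure D5:**
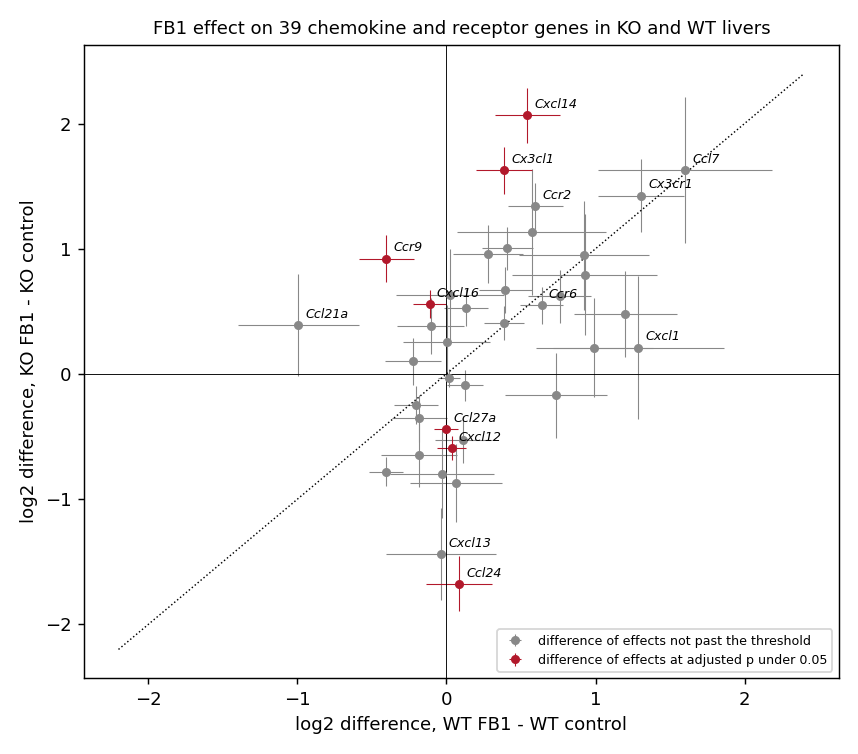
log2 FB1 difference of 39 tested members in KO livers (y axis, KO FB1 minus KO control) against that in WT livers (x axis, WT FB1 minus WT control), with standard errors as bars; the dotted line marks equal effects and red points are the 7 shown members with an adjusted p under 0.05 for the difference. Cxcl14 lies farthest above the line among these (2.07 in KO, 0.54 in WT livers) and Ccl24 farthest below (-1.68 and 0.086).

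Ligands were set beside their receptors where both were tested. With FB1 in KO livers both partners were higher for Ccl7 with Ccr2, Ccl19 with Ccr7 and Cx3cl1 with Cx3cr1. The calls of Ccl7, Ccl19 and Ccr7 there were each lost on leaving out some single arrays. In 3 pairs the ligand was lower and the receptor higher, namely Ccl25 with Ccr9 (-0.78 and 0.92), Cxcl12 with Cxcr4 (-0.59 and 1.0) and Cxcl12 with Ackr3 (-0.59 and 0.96). Between KO and WT livers without FB1 both were higher for Ccl2 and Ccl7 with Ccr2. For Ccl7 the filter favoured this direction, without FB1 and with it. The ligand was lower and the receptor higher for Ccl24 with Ccr3 (-3.14 and 1.5). With FB1, 3 pairs were both higher in KO (Ccl2 and Ccl7 with Ccr2, Cx3cl1 with Cx3cr1) and 3 were opposite (Ccl19 and Ccl21a with Ccr7, Cxcl12 with Cxcr4). The pairs of Ccr7 rest on a call lost on leaving out any 1 of 16 arrays, and the call of Ccl21a was lost for any 1 of 7. No pair had both partners called with FB1 in WT livers.

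Many of these genes lie in clusters, and neighbours did not always move alike. In the file's mm9 coordinates, Ccl2, Ccl7, Ccl11, Ccl12, Ccl8 and Ccl1 lie on chromosome 11 between 81850650 and 81990510, where Ccl7 rose and Ccl1 fell with FB1 in KO livers. Both of these calls were lost on leaving out some single arrays. Ccl5, Ccl9, Ccl6, Ccl3 and Ccl4 lie on chromosome 11 between 83339296 and 83478111, where without FB1 Ccl3 and Ccl4 were higher and Ccl6 and Ccl9 lower in KO than in WT livers. Cxcl9, Cxcl10 and Cxcl11 lie on chromosome 5 between 92752191 and 92788699. Cx3cr1 and Ccr8 lie together on chromosome 9 between 119957811 and 120004000, where with FB1 Cx3cr1 was higher and Ccr8 lower in KO than in WT livers.

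Other genes of the pathway were counted from lists of known function, beside the 16.5% of all genes higher and 24.6% lower with FB1 in KO livers. Of 24 genes that signal below the receptors, 14 were higher and 1 lower with FB1 in KO livers (median 0.32) and 0 were called in WT livers. The one with the smallest p was Pik3r5, a regulatory subunit of the lipid kinase that G proteins activate (0.67 ± 0.12, adjusted p = 8.98e-05). Of 13 genes that damp receptor signals, 7 were higher and 1 lower in KO livers (median 0.47) and 0 were called in WT livers. Rgs10, which speeds the switching off of G proteins, rose by 0.98 ± 0.15 (adjusted p = 2.53e-05). Of 11 genes that cut or display chemokines, 4 were higher and 4 lower in KO livers and 2 higher in WT livers. The matrix protease Mmp2 rose by 2.43 ± 0.23 (adjusted p = 1.04e-07) in KO livers and 1.07 ± 0.23 (adjusted p = 0.00969) in WT livers, and the peptidase Dpp4, which trims several chemokines, fell in KO livers (-0.57 ± 0.10, adjusted p = 7.61e-05).

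Of 22 tested genes of NF-kB and its inducers, 4 were higher and 3 lower with FB1 in KO livers (median 0.05), a smaller share called than the 41.2% of all genes, and 5 were higher and 0 lower in KO than in WT livers without FB1 (7.21% and 8.02% of all genes). The cytokine Il18 fell with FB1 in KO livers (-0.80 ± 0.10, adjusted p = 3.76e-06), and Tnfaip3, an NF-kB target that damps it, rose (0.86 ± 0.16, adjusted p = 0.000172). Of 12 genes of the interferon axis, 5 were higher and 1 lower with FB1 in KO livers (median 0.45), among them the interferon gamma receptor chain Ifngr1 (0.86 ± 0.11, adjusted p = 2.02e-06) and the regulator Irf7 (1.69 ± 0.24, adjusted p = 1.03e-05). None of either list was called with FB1 in WT livers. Of 6 tested chemokine-like genes whose names fall outside the choice, 2 were higher and 2 lower in KO than in WT livers without FB1. These included platelet factor 4 (Pf4), higher by 1.80 ± 0.16 (adjusted p = 9.12e-09), and Ppbp, another platelet chemokine, lower (-2.09 ± 0.41, adjusted p = 0.00091).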

How the data were processed

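Total liver RNA was labelled with Cy3 and read on 1-colour Agilent mouse arrays, per the labels. The deposited scanner files give each spot's intensity, background-subtracted by Agilent Feature Extraction 10.10.1.1 per the file headers and not normalised between arrays. A log2 matrix deposited by the authors, for which the submitters' processing notes name limma, was used as an alternative. Its column medians were all 7.86, and its columns correlated with the log2 scanner intensity of the same arrays at 0.988 to 0.991, so its scale and direction are known and its genes are not centred.

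Intensities were divided by each array's 75th percentile and put on the log2 scale. Outlier spots (64 to 121 of 59305 per array) were set to missing, and 0 were saturated. Probes (33417) had to be well above background on all arrays of a group and have at least 4 values per group. A gene was its brightest tested probe, named through RefSeq (GRCm38.p6) for 32994 probes and by the file's name otherwise. All 24 arrays entered 1 fit of 4 group means with limma 3.58.1 (lmFit, eBayes) in R 4.3.3, with p-values adjusted by the Benjamini-Hochberg method over 22088 genes. Where 0 arrays of a group passed background, the fold is a bound against the lowest signal that passed. Figures used Python 3.11.15 and matplotlib 3.10.9. Every member called at least once is named, except 1 that enters the counts and is not reported here. The per-array ranges are given for the members whose FB1 effects differed and the 5 largest calls of each other comparison, and for Cxcl1 and Cxcl11, chosen after their values were seen. The members and all gene lists were chosen with earlier results of these data known. Tested on simulated data for FB1 in WT over 22088 genes, the fit recovered 62% of 1.5-fold, 82% of 2-fold and 100% of 4-fold changes.

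The alternatives tried changed the normalisation (quantile), the background correction (normexp, offset 50), the source (the authors' log2 values), the dim-probe filter, the handling of outlier spots, the summary of several probes (their mean), the model (a block for slide or for replicate number, 1 slide at a time, or 2 groups at a time), the size threshold (1.5-fold) or the arrays (1 left out). Protein sequences were not used here.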

Additional observations from a re-analysis of the deposited data

Results flagged for a closer look

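Single arrays stood apart from the other 5 of their group, by Dixon's gap test, in 12 of 160 member and group combinations, where chance marks about 1 in 20. Low values were -2.47 for Ackr3 in WT FB1 replicate 5 (nearest array -1.41), 0.094 for Ccl2 in KO FB1 replicate 3 (nearest array 1.61), -4.87 for Ccr8 in WT control replicate 3 (nearest array -4.30), -0.33 for Cxcl10 in KO FB1 replicate 3 (nearest array 1.93), -0.22 for Cxcl14 in KO control replicate 2 (nearest array 0.23), -5.80 for Cxcr4 in WT control replicate 4 (nearest array -4.89), -5.38 for Cxcr5 in WT FB1 replicate 2 (nearest array -4.37), -5.51 for Xcl1 in KO control replicate 2 (nearest array -4.27). High values were 0.45 for Ccl21a in WT control replicate 4 (nearest array -1.57), -6.44 for Ccl3 in WT control replicate 6 (nearest array -7.63), -1.93 for Ccr2 in KO control replicate 3 (nearest array -2.43), -1.85 for Ccr9 in KO FB1 replicate 2 (nearest array -2.61). KO FB1 replicate 3 was the low array for both Ccl2 and Cxcl10 and the lowest of its group for 19 of 40 members, and WT control replicate 4 was the lowest of its group for 21 of 40. The cause was not tested.

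The FB1 effect differed between KO and WT livers, by the test of the difference itself, for 8 members. For 7 of them the difference of log2 effects, KO minus WT, was -1.76 for Ccl24, -0.43 for Ccl27a, 1.32 for Ccr9, 1.24 for Cx3cl1, -0.63 for Cxcl12, 1.53 for Cxcl14 and 0.67 for Cxcl16. All 8 kept their sign in each of the 3 slides.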

How the results depend on the processing

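Of 75 called member differences, 50 kept direction and call in every alternative that tested them, single slides and the 1.5-fold threshold set aside. A call absent from an alternative counts as kept there. With the filter set to probes above background on all arrays, 32 members were tested, which left out Ccl3, Ccl4, Ccl7 and Cxcr4 among others. The difference of effects was not refitted from 2 groups at a time. At 1.5-fold, 17 and 2 calls were left for FB1 in KO and WT livers, 12 and 18 between genotypes without and with FB1, and 7 for the difference. Of the 75, 18 lost the call on leaving out some 1 array, and 73 had the same sign in every slide. The 2 that reversed did so in slide 2 alone, Ccr7 for FB1 in KO livers (-0.0016) and Cxcl10 between KO and WT with FB1 (-0.24). Counts of called members moved by more than 1.5 times only as follows. For FB1 in WT livers (2), 4 were called with normexp, and by limma 0 in slide 1, 0 in slide 2, 0 in slide 3 and 0 from the WT groups alone, where 15, 12, 7 and 12 passed an unadjusted p of 0.05. Over all genes 522 were called with normexp, 7, 33 and 0 in slides 1, 2 and 3, and 381 from the WT groups alone. No share of all genes was counted at an unadjusted p. Leaving out 1 array gave 1 to 6 called members (6 without WT control replicate 6, 4 without KO FB1 replicate 3, WT FB1 replicate 2 or WT FB1 replicate 4, and 1 without WT FB1 replicate 1). For FB1 in KO livers (23), slides 1 and 2 gave 9 and 1, and leaving out an array 18 to 24. Between genotypes without FB1 (17), slides 1, 2 and 3 gave 7, 3 and 3, and leaving out an array 14 to 17; with FB1 (25), the slides gave 11, 4 and 16, and leaving out an array 21 to 27. For the difference of effects (8), limma called 0 in slides 1 and 2, where 15 and 6 passed an unadjusted p of 0.05, and leaving out an array gave 8 to 11. Single slides hold 2 arrays per group. Over all genes slides 1, 2 and 3 gave 1971, 305 and 4905 calls for FB1 in KO livers. Between genotypes they gave 724, 424 and 885 without FB1 and 1615, 705 and 4162 with it, and for the difference 6, 3 and 1083. With the replicate number as a block the counts of members were 23 and 2 for FB1 in KO and WT livers, 15 and 25 between genotypes without and with FB1, and 9 for the difference. In the same order that block gave 8912, 552, 3190, 6994 and 1898 calls over all genes. The calls of Ccl19, Ccl25 and Cxcr5 between genotypes without FB1 and of Ackr4 with FB1 in KO livers were lost. Same-numbered arrays did not deviate together (median r -0.0029 over 36 pairs, and 2 of 24 arrays correlated best with their own number). The values thus show no pairing by number, though this check cannot exclude a pairing with little effect on them. Dim probes (Ccl3 and Ccl7 in WT control livers) limit the size of their differences.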
